A study of Homo sapiens with 12 samples.

Results

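The oxygen by siRNA interaction asks, gene by gene, whether cells with less ARNT respond to hypoxia differently from control cells. It was computed as the hypoxia change in siARNT minus the hypoxia change in siControl, on the log2 scale, and it used all 12 of the 12 libraries. AsPC-1, the cell line used, is an established human line from a pancreatic adenocarcinoma. By their titles the libraries form 4 groups, each with replicates A, B and C. The groups were normoxia siControl (21% O2, scrambled siRNA), hypoxia siControl (1% O2 for 24 h, scrambled siRNA), normoxia siARNT (21% O2, siRNA against ARNT) and hypoxia siARNT (1% O2 for 24 h, siRNA against ARNT). Poly(A) RNA was taken from every group 48 h after transfection, so all groups share the transfection. Per the labels, wells were seeded in triplicate, and the cells of a well were divided between the oxygen levels on the day after transfection. The labels do not say which libraries share a well, and the fit did not pair them. The model is 1 cell line and an acute, partial knockdown. Adjusted p-values measure the spread between replicate libraries of 1 line, taken as independent although some share a well.

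Hypoxia-inducible factors (HIFs) are pairs of an alpha subunit, HIF-1 alpha or HIF-2 alpha, and the beta subunit ARNT. Oxygen-dependent prolyl hydroxylases mark the alpha subunits for destruction through VHL, so that in low oxygen the alpha subunits persist, join ARNT and bind short DNA elements with the core ACGTG or GCGTG near genes of glycolysis, angiogenesis and oxygen sensing. ARNT also pairs with the aryl hydrocarbon receptor (AHR), which binds elements with the core GCGTG near detoxification genes such as CYP1A1. HIF is known mainly as an activator, and many of the falls in RNA seen in hypoxia are attributed to indirect routes.

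ARNT (ENSG00000143437.16) was measured at 60.7, 63.6 and 63.0 CPM (counts scaled to the size of the library, written CPM throughout) in normoxia siControl, 70.3, 64.9 and 72.2 in hypoxia siControl, 13.3, 12.8 and 14.0 in normoxia siARNT, and 16.0, 15.8 and 14.1 in hypoxia siARNT. All 6 siARNT libraries were below all 6 siControl libraries, some ARNT RNA was left, and the knockdown did not differ detectably between oxygen levels (interaction 0.05, 95% interval -0.16 to 0.26, adjusted p 0.782). The libraries held between 38.53 and 84.34 M counts in genes. Libraries differed in how their counts ran with the GC content of genes: the slope was 0.456 log2 units per 10% GC in normoxia siARNT replicate B, 0.251 in hypoxia siARNT replicate C, and between -0.219 and 0.134 in the other 10. All 10 epithelial markers were above 1 CPM, with a sum of 5940 to 10200 CPM per library. That sum was 7320 to 10200 CPM in normoxia siARNT and 5940 to 7770 CPM in hypoxia siARNT, and its part in the results was not tested. CD3E was at 0 in every library and PTPRC had at most 4 counts, while LYZ averaged 185 CPM. COL1A1 had 2 to 8 counts, while LUM averaged 448 CPM and the 6 fibroblast markers together gave 547 to 573 CPM in hypoxia siControl and 336 to 463 CPM in the other 3 groups. In bulk RNA, fewer cells in a state and less RNA per cell cannot be told apart.

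The hypoxia response of 797 of 16999 tested genes differed between siARNT and siControl (4.69% of tested genes; 3543 at an unadjusted p under 0.05). The difference was positive in 424 genes (2.49%) and negative in 373 (2.19%). Its median over all tested genes was -0.018. Hypoxia in siControl called 4299 genes (25.3%), and hypoxia in siARNT, on separate libraries, called 696 (4.09%). With a correction for GC content these counts were 6973 and 3518, so the gap between them depends on the processing. The siRNA was called in 3431 genes at 21% O2 (20.2%) and in 4948 at 1% O2 (29.1%). Blocking libraries of the same siRNA and letter as 1 well gave 373 interaction calls and 136 for hypoxia in siARNT. Of the 797 interaction calls, 370 (46.4%) were called in the same direction with that block. With total count scaling the interaction called 1495 genes, 1125 of them positive, so the share of positive calls went from 53.2% to 75.3%, and with a correction for GC content it called 2909, 1500 of them positive. The balance of positive and negative calls was not stable. The positive share was 63.8% with a filter of at least 1 CPM on average and 41.5% (240 of 579) with no filter. With 1 library left out it ran from 42.2%, without normoxia siControl A, to 62.3%, without hypoxia siControl C, and negative calls were the majority in 9 of 12 cases. Leaving out 1 library lowered the count more than 1.5 times in 9 of 12 cases. It was 308, 372 and 272 without normoxia siControl A, B and C, 317 and 393 without hypoxia siControl A and B, 419 and 487 without normoxia siARNT A and C, and 435 and 295 without hypoxia siARNT A and B. It was 749 without normoxia siARNT B and 1188 without hypoxia siARNT C, the libraries with the steepest GC slopes. The part of GC content in these counts was not tested.

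Rises and falls were sorted by what was left of them in siARNT. A response called in siControl was lost if the interaction was called against it and hypoxia in siARNT was not called the same way, reduced if the interaction was called against it and hypoxia in siARNT was still called the same way, kept if it was called the same way in both and the interaction was not called, and undecided if neither the interaction nor hypoxia in siARNT was called. Of 1772 rises, 297 were lost (16.8%), 39 reduced, 170 kept (9.6%), 1 strengthened and 1265 undecided (71.4%). Of 2527 falls, 346 were lost (13.7%), 49 reduced, 172 kept (6.8%), 0 strengthened and 1960 undecided (77.6%). As shares of all tested genes, lost rises were 1.75%, reduced rises 0.229%, kept rises 1%, strengthened rises 0.00588% and undecided rises 7.44%. Lost falls were 2.04%, reduced falls 0.288%, kept falls 1.01% and undecided falls 11.5%. A further 23 rises and 22 falls were gained, meaning called in siARNT with the interaction called the same way and no call in siControl (0.135% and 0.129% of tested genes). The lost rises had a median change of 0.76 in siControl and -0.02 in siARNT, and the lost falls -0.62 and -0.08. These medians describe the classes and are no test of them, because the class uses the same calls. A lost response is one not called in siARNT, which does not show that it was absent. In siARNT 136 of the 297 lost rises still changed upward, as did 43.5% of all tested genes. Of the 346 lost falls, 242 still changed downward, the direction that most tested genes took in siARNT. Blocking by well gave 177 lost rises and 165 lost falls. The GC correction gave 964 lost and 726 kept rises, and 881 lost and 907 kept falls. With 1 library left out, lost rises ran from 134 to 371 and lost falls from 101 to 651. Lost rises were more than 1.5 times fewer without normoxia siControl A, B or C (152, 180 and 134), hypoxia siControl A or B (137 and 165) or hypoxia siARNT B (146). Lost falls moved by more than 1.5 times without normoxia siControl A, B or C (119, 143 and 101), hypoxia siControl A or B (138 and 144), normoxia siARNT A or C (178 and 197), or hypoxia siARNT A, B or C (176, 120 and 651).

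**Figure D1:**
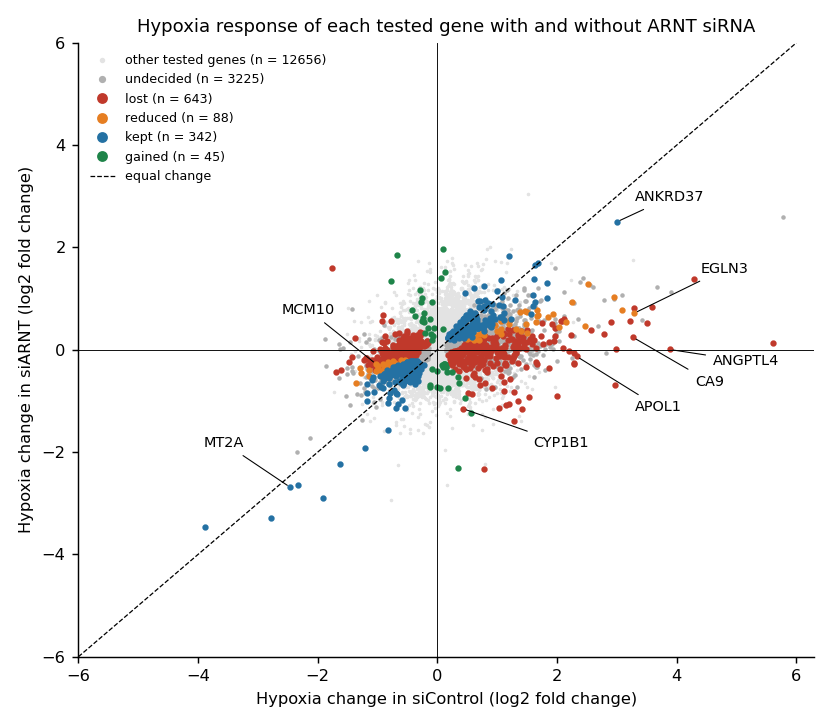
Each point is 1 of 16999 tested genes, with its hypoxia change in siControl on the x axis and in siARNT on the y axis (log2 fold change), coloured by what became of its response. Large rises such as CA9, APOL1 and ANGPTL4 lie near 0 on the y axis, ANKRD37 and MT2A lie near the line of equal change, and CYP1B1 lies below 0.

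Because hypoxia in siControl and hypoxia in siARNT share no library, rises and falls chosen in siControl could be read afresh in siARNT. The 385 rises of at least 1 log2 unit had a median of 1.34 in siControl and 0.27 in siARNT, where 72.7% had the same sign and 48 were called upward. The interaction was called against 130 of them, and for 0 of the 385 did its 95% interval lie within 0.5 of 0. Rises under 0.5 units (747 genes) had medians of 0.34 and 0.12. The 98 falls of at least 1 unit had medians of -1.19 and -0.38, 87.8% had the same sign, 20 were called downward and the interaction was called against 34. The 6 largest falls, of at least 2 units, went the other way, at -2.40 in siControl and -2.66 in siARNT. The medians over all tested genes were 0.022 in siControl and -0.039 in siARNT. In siARNT 43.5% of all tested genes changed upward, so the same-sign shares of rises and falls have unequal backgrounds. A gene chosen for a large change in siControl tends to read smaller in other libraries whatever the siRNA, and that part of the difference was not measured here. Genes chosen in siARNT also read smaller in siControl. The 79 rises of at least 1 unit called in siARNT had medians of 1.27 there and 0.47 in siControl. The 21 such falls had medians of -1.62 and -0.70.

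**Figure D2:**
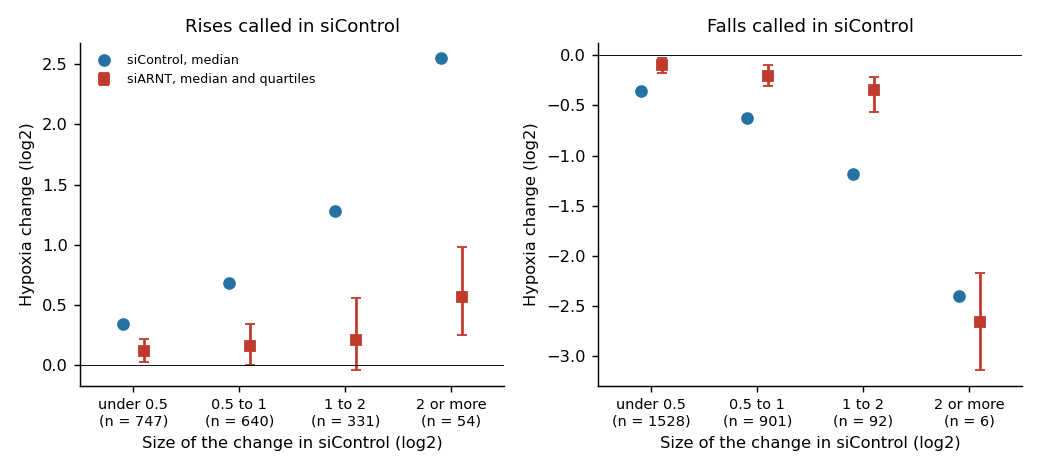
Medians of the hypoxia change (log2) for rises (left) and falls (right) called in siControl, by the size of the change in siControl; circles give siControl and squares siARNT, with bars from the first to the third quartile. Squares lie nearer to 0 than circles in every bin except the 6 falls of at least 2 units, where the medians are -2.40 and -2.66.

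Of the known HIF targets that rose in siControl, most had a lost or reduced rise. Of 60 listed targets 55 were tested (NDUFA4L2, STC2, LOX, BNIP3 and MT3 had at most 5 counts in any library). In siControl 46 of the 55 rose with hypoxia and 2 fell, CA12 among them; the rises compare with 10.4% of all tested genes. The list's median was 1.10. In siARNT 8 rose, against 2.21% of all genes, with a median of 0.06. The interaction was negative in 29, against 2.19% of all genes, and positive in 1, with a median of -0.96. At 1% O2, where siARNT and siControl were compared directly, 39 of the 55 were lower with siARNT (14.7% of all tested genes were). By class, 22 rises were lost, 7 reduced, 1 kept and 16 undecided. The list was drawn up with earlier results of these data known, so its direction is no independent evidence. Of the 30 interaction calls, 25 held under all 21 alternatives, and the number of negative calls ran from 26 to 44. The 44 came with the GC correction, where 1409 of all genes were called negative, against 373 in the main fit.

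Promoters from RefSeq (GRCh38.p14) are shown for a lost, a reduced and a kept rise, as the 250 bases before the start of each gene, read in the direction of the gene, with any ACGTG or its reverse complement CACGT in capitals (GCGTG and its complement CACGC were searched too). They lie at chr9:35673678-35673927 (plus strand) for CA9, chr14:33951075-33951324 (minus strand) for EGLN3 and chr4:185396591-185396840 (plus strand) for ANKRD37.
CA9: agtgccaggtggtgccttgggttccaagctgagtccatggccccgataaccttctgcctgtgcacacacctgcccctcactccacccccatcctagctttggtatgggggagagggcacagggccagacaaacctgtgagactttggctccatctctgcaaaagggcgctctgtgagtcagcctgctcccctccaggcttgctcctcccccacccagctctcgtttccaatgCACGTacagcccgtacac
EGLN3: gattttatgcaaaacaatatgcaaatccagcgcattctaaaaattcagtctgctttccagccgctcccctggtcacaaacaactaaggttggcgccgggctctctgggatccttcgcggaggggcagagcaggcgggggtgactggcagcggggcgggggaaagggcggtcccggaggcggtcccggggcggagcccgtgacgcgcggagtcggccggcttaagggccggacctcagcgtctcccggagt
ANKRD37: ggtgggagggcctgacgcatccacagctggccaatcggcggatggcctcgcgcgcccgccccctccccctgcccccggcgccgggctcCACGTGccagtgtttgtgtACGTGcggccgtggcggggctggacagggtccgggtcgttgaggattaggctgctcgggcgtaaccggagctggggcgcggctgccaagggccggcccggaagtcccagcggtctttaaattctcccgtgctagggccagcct
The CA9 window holds 1 match, with its first base 18 bases before the start, the EGLN3 window holds 0, and the ANKRD37 window holds 3, of which a pair overlaps in CACGTG.

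Genes of pH control and oxygen sensing gave large differences. CA9 (ENSG00000107159.8), a cell-surface carbonic anhydrase, stood at 11.3, 12.8 and 12.0 CPM in normoxia siControl and at 113, 130 and 105 CPM in hypoxia siControl. In siARNT it stood at 20.3, 28.6 and 18.3 CPM in normoxia and 23.5, 24.9 and 31.1 CPM in hypoxia. The oxygen groups were far apart in siControl and overlapped in siARNT. The rise was 3.27 in siControl (SE 0.17, adjusted p 4.4e-07), the change in siARNT was 0.24 (SE 0.16, adjusted p 0.414), and the interaction was -3.02 (SE 0.23, 95% interval -3.53 to -2.52, adjusted p 3.42e-05). CA9 was already higher with siARNT in normoxia, by 0.90 (adjusted p 0.00346). EGLN3 (ENSG00000129521.9), a prolyl hydroxylase that marks HIF alpha, stood at 12.7, 12.3 and 12.2 CPM in normoxia siControl, 128, 121 and 114 in hypoxia siControl, 12.4, 11.4 and 13.1 in normoxia siARNT, and 22.4, 18.9 and 19.0 in hypoxia siARNT. Here the oxygen groups did not overlap with either siRNA, and the rise was reduced from 3.29 to 0.71 (interaction -2.57, SE 0.11, adjusted p 8.09e-07). The prolyl hydroxylase EGLN1, the HIF antagonist CITED2, the repressor BHLHE40 and the MYC antagonist MXI1 were lost rises, with interactions of -0.77, -0.66, -0.75 and -0.81. CA12, another carbonic anhydrase, was the 1 target with a positive call: it fell by 0.34 in siControl, and its change in siARNT was 0.29 (adjusted p 0.0687; interaction 0.63, adjusted p 0.0118).

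ANKRD37 (ENSG00000186352.4), an ankyrin repeat gene and established HIF-1 target, was the 1 listed target with a kept rise. It stood at 0.645, 0.744 and 0.668 CPM in normoxia siControl and 5.57, 5.50 and 5.34 in hypoxia siControl, against 0.327, 0.465 and 0.491 in normoxia siARNT and 2.74, 2.39 and 2.00 in hypoxia siARNT. Every hypoxia library was above every normoxia library with either siRNA. Its rise was 3.00 in siControl and 2.50 in siARNT, and the interaction of -0.50 was not called in any of the 21 alternatives (95% interval -1.03 to 0.03, adjusted p 0.264). Both siARNT levels were below their siControl counterparts, by 0.70 in normoxia (adjusted p 0.0245) and 1.2 in hypoxia (adjusted p 0.000102). A missed threshold does not show that the rise was the same, since the interval reaches past -1.

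Among 18 genes of glucose uptake and glycolysis, 17 rose with hypoxia in siControl (10.4% of all tested genes did) and 2 in siARNT (2.21%). The interaction was negative in 8 (2.19% of all genes). The glucose transporter SLC2A1, the hexokinase HK2, the isomerase GPI and the enzymes ALDOC, PGK1 and PGAM1 were lost rises, ENO2 and the lactate dehydrogenase LDHA were reduced, and 9 were undecided. PGK1 (ENSG00000102144.9), phosphoglycerate kinase, was measured at 725, 717 and 706 CPM in normoxia siControl, 2200, 2240 and 1980 in hypoxia siControl, 730, 792 and 734 in normoxia siARNT, and 799, 824 and 804 in hypoxia siARNT. Only hypoxia siControl stood apart by a wide margin, with a rise of 1.58 against 0.11 in siARNT (interaction -1.47, SE 0.083, adjusted p 4.59e-06). LDHA was reduced from 1.39 to 0.37 (interaction -1.02, adjusted p 0.000192), and ENO2, the neuronal enolase, by 2.96 and 1.02 (interaction -1.94, adjusted p 0.000419). GPI was called in 16 of 21 alternatives and the other 7 in all 21.

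The 9 undecided glycolytic genes included GAPDH, ALDOA, TPI1, ENO1, PKM and the lactate exporter SLC16A3. ALDOA (ENSG00000149925.12), aldolase A, ran from 197 to 248 CPM in normoxia siControl and from 536 to 844 CPM in hypoxia siControl. In siARNT it was 276, 622 and 285 CPM in normoxia and 254, 345 and 509 CPM in hypoxia. The high values, 622 and 509 CPM, fell in the libraries with the steepest GC slopes, and the GC content of ALDOA is 60.1%. Its interaction was -1.70 (SE 0.466, adjusted p 0.0654) and was called in 5 of 21 alternatives, the GC correction and the fit without hypoxia siARNT C among them. GAPDH had an interaction of -1.11 (adjusted p 0.0567) and was called in the same 5. The part of GC content in the values of ALDOA and GAPDH was not tested. Reads of GAPDH, LDHA and PGK1 can also come from, or be lost to, near-identical pseudogenes. SLC2A3, another glucose transporter, had 0 to 3 counts in each normoxia library, 115, 34 and 76 counts in hypoxia siControl and 4, 0 and 6 counts in hypoxia siARNT, and at such counts the interaction was not called (adjusted p 0.431).

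The interaction was negative in 4 of 9 metabolic switches, 3 of 6 secreted factors and 4 of 4 stress genes tested, against 2.19% of all genes. PDK1 (ENSG00000152256.9), the kinase that holds back pyruvate dehydrogenase, stood at 40, 35.6 and 40.1 CPM in normoxia siControl, 102, 94.1 and 104 in hypoxia siControl, 39.2, 36.2 and 40.2 in normoxia siARNT, and 40.9, 39.4 and 38.0 in hypoxia siARNT. The 3 groups other than hypoxia siControl covered the same range (rise of 1.38 in siControl, 0.03 in siARNT, interaction -1.34, SE 0.098, adjusted p 2.44e-05). PFKFB3 and PFKFB4, which set the glycolytic activator fructose 2,6-bisphosphate, were lost at -0.84 and -2.99, and so was the glycogen enzyme PGM1 (-0.88). ADM, which encodes adrenomedullin, rose by 1.66 in siControl, and in siARNT its change was -0.27 (adjusted p 0.283; interaction -1.93, adjusted p 0.000197). ANGPTL4, an inhibitor of lipoprotein lipase, had an interaction of -3.87 (adjusted p 0.00201). VEGFA, the main angiogenic factor, rose by 1.17 in siControl against 0.40 in siARNT (adjusted p 0.116), and its interaction of -0.77 (adjusted p 0.0433) held in only 10 of 21 alternatives. The mTORC1 inhibitor DDIT4 was lost (-1.35, adjusted p 0.00381), and NDRG1 and the mitophagy receptor BNIP3L were reduced (-2.32 and -1.10, adjusted p 1.48e-05 and 0.000235).

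Among histone demethylases, KDM3A rose by 1.49 with siControl and 0.74 with siARNT (interaction -0.75, adjusted p 0.00436), and KDM4B and KDM4C were undecided. Among collagen and disulfide enzymes, the prolyl 4-hydroxylase subunit P4HA1 was reduced from 2.24 to 0.94 (interaction -1.31, adjusted p 0.000235) and the oxidase ERO1A was lost (-0.69, adjusted p 0.0106). The lysyl hydroxylase PLOD2 had 2, 2 and 1 counts in normoxia siControl, 113, 63 and 67 in hypoxia siControl, 12, 4 and 5 in normoxia siARNT, and 8, 3 and 5 in hypoxia siARNT. It was high in hypoxia siControl alone, and its interaction was called (adjusted p 0.000235), in 19 of 21 alternatives.

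**Figure D3:**
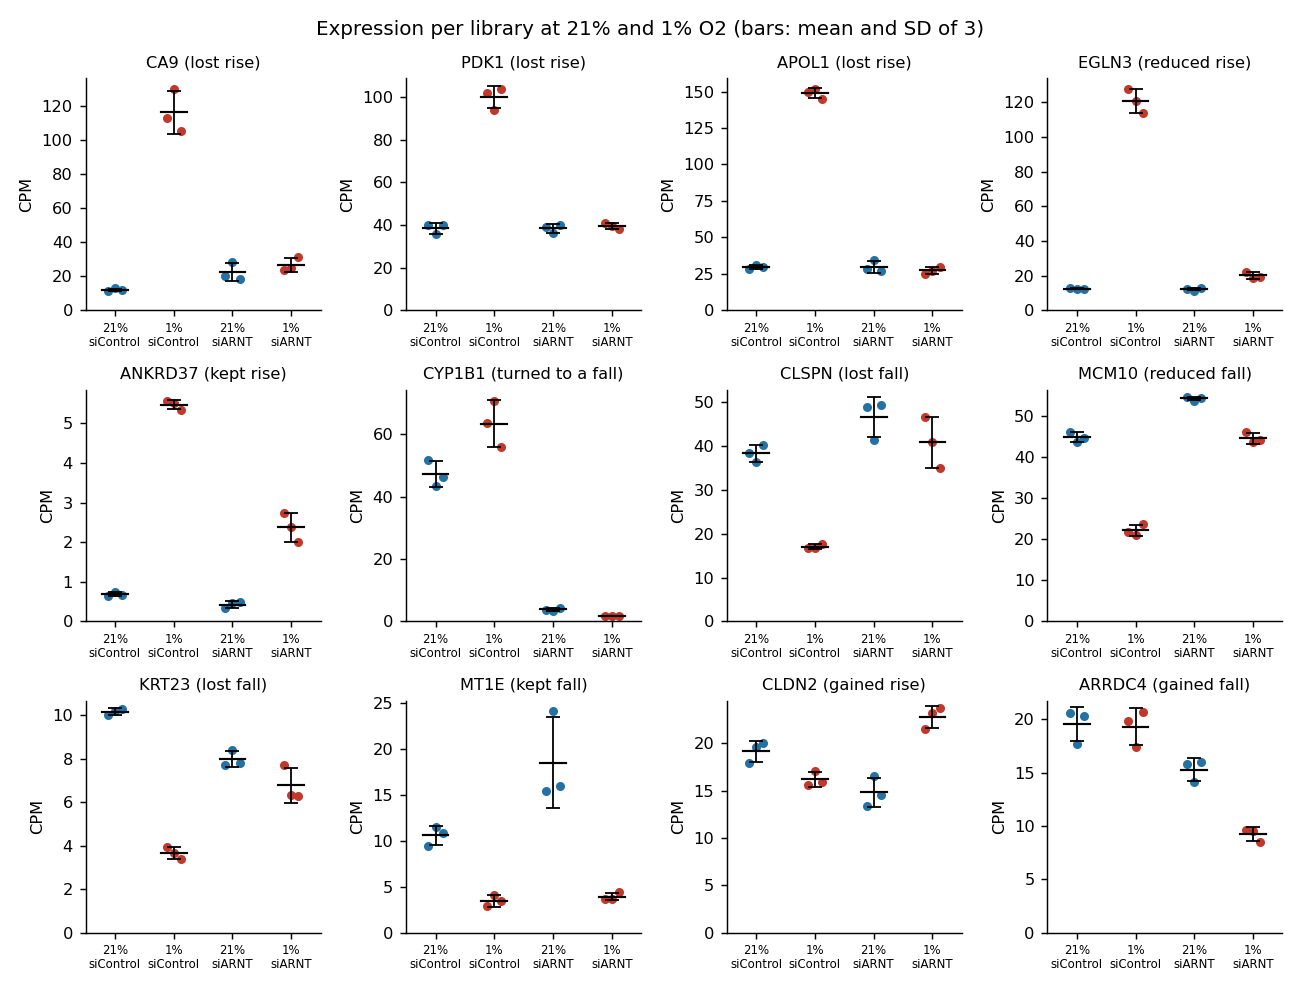
CPM of 12 genes in each library, by oxygen level and siRNA, with the mean and SD of 3 libraries. CA9, PDK1 and APOL1 are high in hypoxia siControl alone, ANKRD37 and MT1E move with oxygen under both siRNAs, and CYP1B1 is low in all siARNT libraries.

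Lost rises reached beyond the listed HIF targets. APOL1 (ENSG00000100342.16), an apolipoprotein L that lyses trypanosomes, stood at 28.4, 31.3 and 29.6 CPM in normoxia siControl, 150, 152 and 145 in hypoxia siControl, 28.1, 34.5 and 27.1 in normoxia siARNT, and 24.8, 27.3 and 30.0 in hypoxia siARNT. Only the hypoxia siControl libraries were high (rise of 2.32, interaction -2.45, SE 0.13, adjusted p 4.59e-06). Its neighbour in the family, APOL2, rose by 1.65 and was lost as well (interaction -1.89, adjusted p 2.44e-05), while APOL3 and APOL6 were called neither for hypoxia nor for the interaction. The scaffold gene PPFIA4 (interaction -2.76), POU5F1 (-2.18), the trefoil factor TFF2 (-2.35) and the cytokine TNFSF9 (-1.52) were other large lost rises, each called in all 21 alternatives. POU5F1 has several close pseudogenes, so the source of its reads is uncertain. Among reduced rises were the adaptor PAG1, from 2.02 to 0.45, the actin-severing SCIN, from 1.84 to 0.64, and the histone genes H4C8 and H2BC5, from 2.15 to 0.55 and from 1.69 to 0.68. Replication-dependent histone RNA is mostly not polyadenylated and its genes are alike in sequence, so both values are uncertain.

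Of 19 keratin and junction genes tested, 2 were lost rises (CDH1 and DSP) and 1 was a lost fall (KRT23), against 1.75% and 2.04% of all tested genes. The adherens junction gene CDH1 was measured at 154, 158 and 159 CPM in normoxia siControl, 242, 240 and 230 in hypoxia siControl, 206, 212 and 200 in normoxia siARNT, and 236, 228 and 232 in hypoxia siARNT. The hypoxia levels were close in both siRNAs and the normoxia level was higher with siARNT, by 0.39 (adjusted p 0.000245), so its interaction of -0.42 (adjusted p 0.00517) lay on the normoxia side. The desmosomal gene DSP had an interaction of -0.53 (adjusted p 0.00837), and the tight junction gene OCLN was kept, at 0.43 and 0.32. Of 13 inflammatory genes tested, IL1B, NFKBIA and TNFAIP3 were lost rises (1.75% of all tested genes were), with interactions of -1.2, -0.81 and -0.52 (adjusted p 0.0054, 0.0495 and 0.00151), and NFKBIA held in 5 of 21 alternatives. FTH1, the ferritin heavy chain, was a lost rise (-0.48, adjusted p 0.0124) that was no longer called with either GC correction. Of 25 interferon-stimulated genes 1 was called, which is near the 4.69% of all tested genes; it was OAS1, whose rise went from 0.79 to 0.30 (interaction -0.49, adjusted p 0.0113).

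The other named kept rises were smaller than that of ANKRD37. EDN3, an endothelin precursor, rose by 1.59 in siControl and 0.86 in siARNT, YPEL2 by 1.06 and 0.65, PADI2, which converts arginine to citrulline in proteins, by 1.12 and 0.58, and the metalloprotease subunit MEP1A by 1.11 and 0.72. TCAF2, TESK2 and BMT2 rose by 1.63, 1.57 and 1.08 in siControl and by 0.93, 0.70 and 0.63 in siARNT. Each interaction in these 7 genes was negative and missed the threshold (adjusted p 0.0517 to 0.321). With the GC correction EDN3, YPEL2, PADI2, TESK2 and BMT2 were called as smaller in siARNT. The 170 kept rises had medians of 0.54 in siControl and 0.46 in siARNT, and with 1 library left out their number ran from 40, without hypoxia siARNT B, to 208, without hypoxia siControl B. It was more than 1.5 times lower without any siARNT library other than hypoxia siARNT C, and without any normoxia siControl library (40 to 105).

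AHR targets turned from rises into falls. CYP1B1 (ENSG00000138061.7), a detoxifying oxidase, stood at 51.6, 43.4 and 46.2 CPM in normoxia siControl and 63.5, 70.7 and 55.8 in hypoxia siControl, but at 3.78, 3.46 and 4.34 CPM in normoxia siARNT and 1.78, 1.73 and 1.68 in hypoxia siARNT. Hypoxia libraries were above normoxia libraries in siControl and below them in siARNT, and all siARNT libraries were far below all siControl libraries. The changes were 0.43 (SE 0.10, adjusted p 0.00851) and -1.15 (SE 0.12, adjusted p 0.00159), with an interaction of -1.58 (SE 0.16, adjusted p 0.000235). AHRR, the repressor of AHR, rose by 0.59 and fell by 0.49 in turn (interaction -1.08, adjusted p 0.000335), and TIPARP, an ADP-ribosyltransferase that also limits AHR, rose by 0.48 and fell by 0.37 (interaction -0.85, adjusted p 0.00399). CYP1A1 went from 374, 243 and 265 counts to 545, 448 and 384 counts with hypoxia in siControl. In siARNT it had 16, 10 and 5 counts in normoxia and 1, 1 and 2 in hypoxia (interaction called, adjusted p 0.00164). NQO1 and ALDH3A1 were not called in the interaction (0.04 and -0.80). So 4 of 6 tested AHR targets were called negative, against 2.19% of all genes, 3 of them in all 21 alternatives, and AHRR lost its call with either GC correction (adjusted p up to 0.154). AHRR, TIPARP and CYP1B1 were also lower with siARNT in normoxia, by 1.72, 1.99 and 3.61 units.

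In all, 20 of the 16999 tested genes were called for hypoxia in opposite directions with the 2 siRNAs, of which 18 rose in siControl and fell in siARNT. Besides the AHR targets they included, chosen here after their values were seen, the lipid droplet coat gene PLIN2 (0.83 and -0.44), IGFBP3, which binds insulin-like growth factors (0.79 and -0.40), the hyaluronan synthase HAS3 (0.68 and -0.35), TSC22D3 (0.48 and -0.37) and TNFAIP3 (0.32 and -0.20). The 2 that fell in siControl and rose in siARNT were EPB41 (-0.29 and 0.27), a membrane skeleton gene, and NPAS2 (-0.26 and 0.32), a clock factor of the same protein family as ARNT. NPAS2 stood at 107, 110 and 114 CPM in normoxia siControl, 93.7, 88.0 and 95.4 in hypoxia siControl, 113, 122 and 106 in normoxia siARNT, and 146, 139 and 140 in hypoxia siARNT, so its oxygen groups did not overlap with either siRNA (interaction 0.57, adjusted p 0.00399). All 20 genes need a call for hypoxia in siARNT, and those calls ran from 129 to 707 with 1 library left out. Some lay near the threshold there, such as TNFAIP3, TIPARP and EPB41 (edgeR adjusted p 0.0448, 0.0452 and 0.0488).

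**Figure D4:**
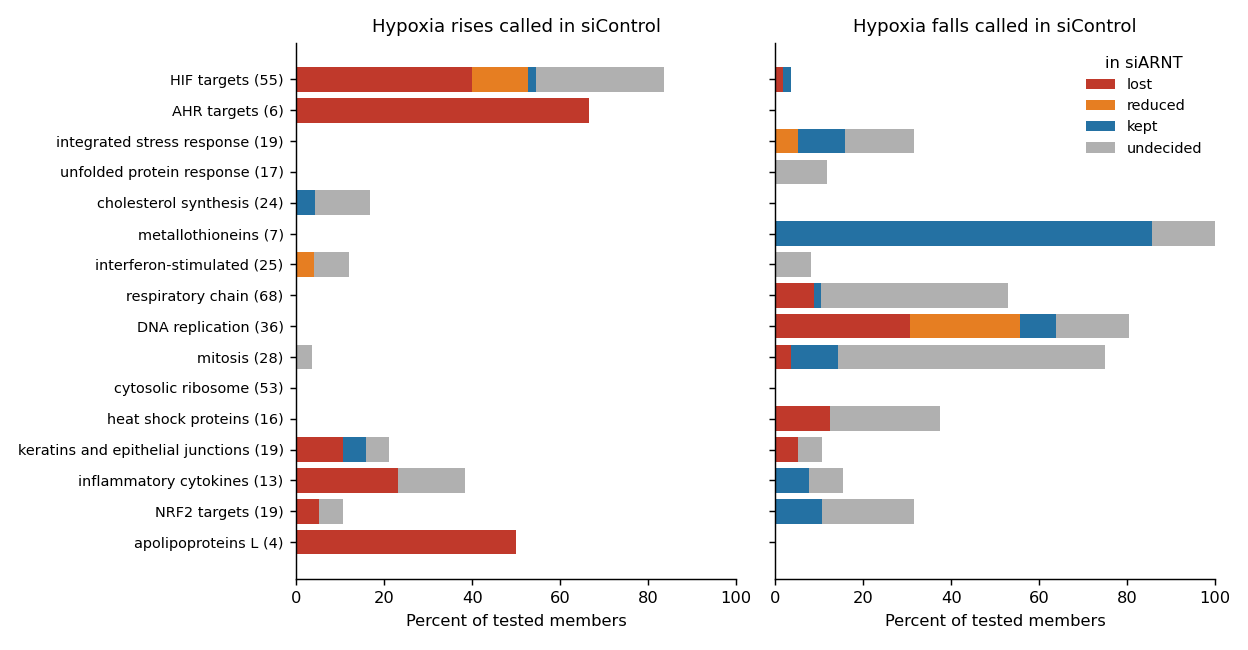
Percent of the tested members of each gene list (number in brackets) whose hypoxia rise (left) or fall (right) was called in siControl, split by what became of it in siARNT. Lost or reduced rises take large shares of the HIF and AHR targets, lost or reduced falls a large share of the DNA replication genes, and kept falls 6 of 7 metallothioneins.

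Falls of DNA replication genes were partly lost. Of 36 genes of the replication origin and fork, 29 fell with hypoxia in siControl, against 14.9% of all tested genes, with a median of -0.67. In siARNT 12 fell, against 1.89% of all genes, with a median of -0.28. The interaction was positive in 20, against 2.49% of all genes, with a median of 0.45, and by class 11 falls were lost, 9 reduced, 3 kept (ORC1, RFC3 and GINS3) and 6 undecided.  The list was also drawn up with earlier results known.

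MCM10 (ENSG00000065328.12), a gene of the replication origin and fork, stood at 46.2, 43.7 and 44.8 CPM in normoxia siControl, 21.7, 21.1 and 23.7 in hypoxia siControl, 54.7, 53.8 and 54.5 in normoxia siARNT, and 46.2, 43.7 and 44.1 in hypoxia siARNT. Hypoxia libraries were below normoxia libraries with both siRNAs, by a wide margin in siControl and a narrow one in siARNT (changes of -1.02 and -0.28, interaction 0.74, SE 0.083, adjusted p 0.000478). The sliding clamp PCNA was at 202, 192 and 207 CPM in normoxia siControl, 108, 107 and 111 in hypoxia siControl, 209, 188 and 209 in normoxia siARNT, and 178, 159 and 151 in hypoxia siARNT. Its fall was reduced from 0.88 to 0.31 (interaction 0.57, SE 0.098, adjusted p 0.00839). Helicase subunits MCM3, MCM4 and MCM6, GINS1 and GINS4, the clamp loader RFC5 and the primase partner POLA2 were reduced as well. TYMS, thymidylate synthase, was lost: it was at 86.5, 81.5 and 86.6 CPM in normoxia siControl, 55.8, 53.8 and 59.6 in hypoxia siControl, and between 84.7 and 91.8 CPM in all 6 siARNT libraries (interaction 0.55, SE 0.079, adjusted p 0.00286). CCNE2, RRM1, RRM2, CDC6, CDC45, POLE2, RFC4, ORC6 and FEN1 were lost falls as well.

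The DNA replication calls varied with the libraries used and with GC content. Of the 20, 7 held in all 21 alternatives. Their number was 28 with the GC correction, 12 without a filter on low counts and 12 with libraries blocked by well. Positive calls over all tested genes were 1500, 240 and 175 in these settings, against 424 in the main fit. The number of DNA replication calls was 7, 9 and 7 without normoxia siControl A, B and C, and 8 and 11 without hypoxia siControl A and B. It was 11 and 12 without normoxia siARNT A and C, and 12 and 8 without hypoxia siARNT A and B. The list's median interaction stayed between 0.42 and 0.50 throughout. Members that were called had a median GC content of 46.0%, and members that were not called 54.5%, and the part of GC content in the calls was not tested. MCM5 (57.5% GC), which was not called (-0.31, adjusted p 0.665), varied widely between libraries: it was at 21.4, 42.5 and 23.4 CPM in normoxia siARNT and 14.2, 18.1 and 26.5 in hypoxia siARNT.

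**Figure D5:**
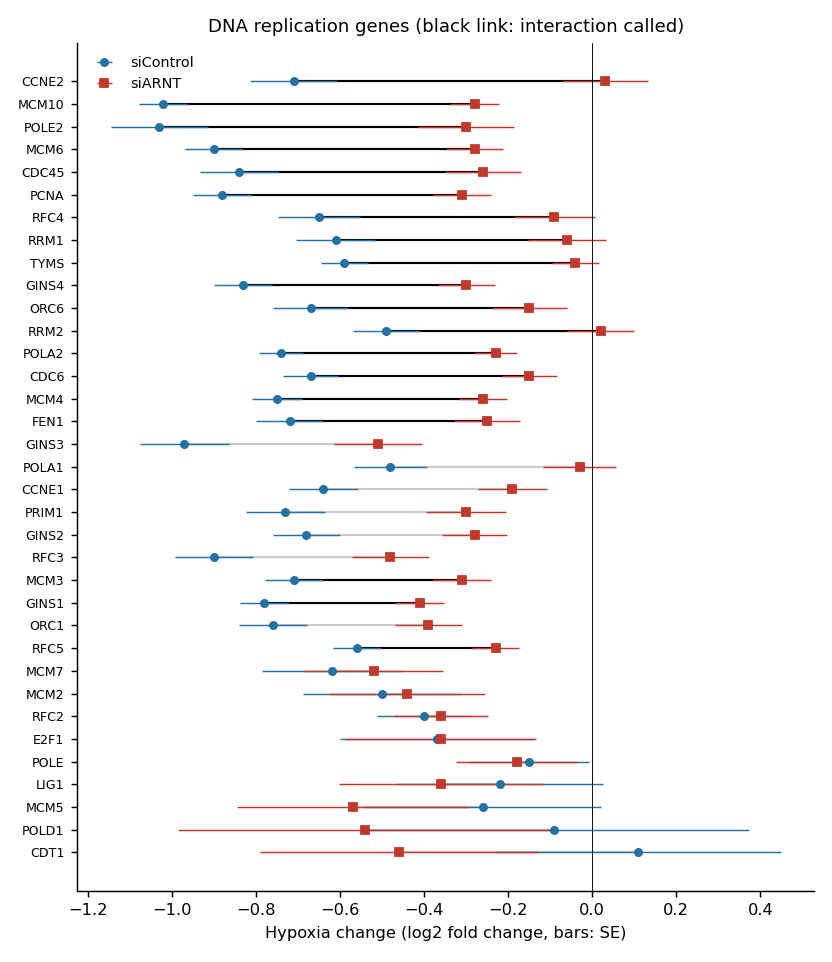
Hypoxia change (log2, bars give the SE) of 35 DNA replication genes in siControl (circles) and siARNT (squares), with a black link where the interaction was called. In the 19 called genes drawn the square lies nearer to 0 than the circle, or just past it, and genes such as MCM5 and POLD1 at the bottom have wide errors.

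Lost falls outside the DNA replication list included CLSPN and KRT23. CLSPN, the claspin adaptor of the replication checkpoint, was at 38.4, 36.4 and 40.2 CPM in normoxia siControl, 16.8, 16.7 and 17.7 in hypoxia siControl, 49.0, 41.3 and 49.4 in normoxia siARNT, and 46.5, 41.0 and 34.9 in hypoxia siARNT. Its oxygen groups overlapped in siARNT only (fall of 1.17 in siControl, interaction 0.98, SE 0.145, adjusted p 0.00345). KRT23 (ENSG00000108244.12), a type I keratin, was at 10.0, 10.2 and 10.3 CPM in normoxia siControl, 3.94, 3.67 and 3.39 in hypoxia siControl, 7.72, 8.41 and 7.81 in normoxia siARNT, and 7.69, 6.35 and 6.28 in hypoxia siARNT. The hypoxia siARNT libraries lay below the other siARNT libraries by a narrow margin and far above hypoxia siControl (interaction 1.24, SE 0.146, adjusted p 0.000686). NPL, which splits sialic acid, the mitochondrial gene RTN4IP1, the plasminogen receptor PLGRKT, DDIAS and TAF9B were lost with interactions of 1.21, 1.03, 1.02, 1.03 and 0.86, each called in all 21 alternatives. CD22 (1.28, adjusted p 0.028) held in 14. The chaperones HSP90AA1 and HSPE1 were lost falls (0.53 and 0.64, adjusted p 0.041 and 0.028) among 16 tested heat shock genes, against 2.49% of all genes with a positive call. Of these 2 chaperones, 0 held in all 21 alternatives.

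Reduced falls included CTPS1 and PSAT1. CTPS1, which makes CTP, was at 67.4, 64.2 and 67.0 CPM in normoxia siControl, 26.8, 25.9 and 28.2 in hypoxia siControl, 66.7, 60.9 and 63.1 in normoxia siARNT, and 52.1, 48.7 and 48.9 in hypoxia siARNT. The fall was clear of overlap with both siRNAs and was reduced from 1.29 to 0.35 (interaction 0.94, SE 0.083, adjusted p 0.000103). PSAT1, of serine synthesis, was reduced from 1.36 to 0.65 (interaction 0.70, adjusted p 0.00432) and was the 1 member called among 19 genes of the integrated stress response, which is near the 4.69% of all tested genes. The channel subunit LRRC8B, the ornithine carrier SLC25A15, the methyltransferase PRMT3, MOCOS and the tRNA deaminase ADAT1 had interactions of 0.82, 0.75, 0.61, 0.64 and 0.67. PRMT3 held in 20 of 21 alternatives and the others in all 21. With 1 library left out the number of reduced falls, 49 here, ran from 4, without hypoxia siARNT B, to 42, without hypoxia siControl C, and it was more than 1.5 times lower in the other 11 cases. The number of reduced rises, 39 here, was 12 without hypoxia siARNT B, 13 to 21 without hypoxia siARNT A, hypoxia siControl A, normoxia siARNT A or C, or any normoxia siControl library, and 29 to 39 in the other 4 cases.

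Mitosis and respiratory chain genes fell with hypoxia in siControl, and most of those falls stayed undecided. Of 28 genes of mitosis 21 fell in siControl (14.9% of all tested genes did; list median -0.42) and 3 in siARNT (1.89%; list median -0.12). The interaction had a median of 0.29 and was called in 1, the kinesin KIF23 (0.56, adjusted p 0.0257), which is near the 2.49% of all genes with a positive call. The number of positive calls in the mitosis list was 14 with the GC correction, 11 with total count scaling, and 0 to 7 with 1 library left out. Positive calls over all tested genes rose as well, from 424 to 1500 with the GC correction and to 1125 with total count scaling. Of 68 respiratory chain genes 36 fell in siControl (14.9% of all genes; list median -0.22) and 1 in siARNT (median -0.13). The interaction was called positive in 6 (NDUFA6, NDUFB3, NDUFS5, UQCRFS1, COX7B and ATP5F1A, from 0.26 to 0.48), which is 8.8% of the list against 2.49% of all genes. None of the 6 was called in all 21 alternatives, and the number of positive calls ran from 0 to 16. The 16 came with total count scaling and with the GC correction and replicate block together. Positive calls over all tested genes were 1125 and 1625 in those settings.

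Falls of metallothioneins, the small proteins that bind zinc and copper, were kept. All 7 tested fell in siControl (14.9% of all tested genes did) and 6 fell in siARNT (1.89%). The interaction was called in 0 of 7 by edgeR, DESeq2 and limma-voom (2 at an unadjusted p under 0.05), and in 1 with the GC correction and replicate block together. With 4.69% of all genes called, 0 of 7 is near the background. MT1E (ENSG00000169715.10) stood at 9.47, 11.5 and 10.9 CPM in normoxia siControl, 2.87, 4.15 and 3.39 in hypoxia siControl, 15.4, 24.2 and 16.0 in normoxia siARNT, and 3.68, 3.68 and 4.41 in hypoxia siARNT. Hypoxia levels were alike in range with both siRNAs and the normoxia level was higher with siARNT (0.80, adjusted p 0.0104). Its fall was 1.62 in siControl and 2.24 in siARNT (interaction -0.62, 95% interval -1.2 to -0.05, adjusted p 0.207). MT2A, MT1X, MT1F and MT1M changed by -2.46, -2.34, -1.92 and -2.77 in siControl and by -2.69, -2.64, -2.89 and -3.3 in siARNT. MT1G had 15 to 30 counts in normoxia siControl, 69 to 128 in normoxia siARNT, 1 or 2 in hypoxia siControl and 3 to 10 in hypoxia siARNT, and MT1A had at most 17 counts in any library. The median interaction of the metallothioneins list was -0.30, and it was 0.11 without normoxia siARNT B. The genes are close copies of each other, so reads may have been lost or moved between them.

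Other kept falls were FABP5, a fatty acid carrier (-1.10 and -0.60), the glutathione-degrading CHAC2 (-1.08 and -0.53), adenosine deaminase ADA (-0.97 and -0.70), HOXA2 (-0.94 and -0.73) and ERVMER34-1 (-1.18 and -0.84). ASNS, asparagine synthetase, fell by 0.80 and 0.55, SLC7A11, the cystine importer, by 0.42 and 0.51, and CXCL5 by 0.82 and 1.03. For ASNS the interval of the interaction ran from 0.01 to 0.49 and for SLC7A11 from -0.41 to 0.22. FABP5 was called as reduced in 4 of 21 alternatives, and CXCL5, ASNS, SLC7A11, HOXA2 and ERVMER34-1 in 0. With 1 library left out the kept falls, 172 here, ran from 45, without hypoxia siARNT B, to 155, without hypoxia siControl B. It was more than 1.5 times lower except without hypoxia siControl B or normoxia siARNT B (126).

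Few responses were gained. CLDN2, a channel-forming claudin, was at 17.9, 19.6 and 20 CPM in normoxia siControl, 15.6, 17.1 and 15.9 in hypoxia siControl, 13.4, 16.5 and 14.5 in normoxia siARNT, and 21.5, 23.2 and 23.7 in hypoxia siARNT. Hypoxia siARNT was the highest group (change of 0.63 in siARNT against -0.24 in siControl, interaction 0.87, SE 0.127, adjusted p 0.0033), and the call held in all 21 alternatives. SYTL2, PLPP3, CCN2, TRNP1, MERTK, PAK1 and NRP1 gained rises of 0.57, 0.43, 0.42, 0.40, 0.32, 0.31 and 0.27, which held in 19, 14, 9, 6, 16, 16 and 9 of the 21. Pseudogenes made up 10 of the 23 gained rises (43.5%, against 10.5% of tested genes), and the gene of origin of their reads is uncertain. Among gained falls ARRDC4, an arrestin-like gene, was at 20.6, 17.7 and 20.3 CPM in normoxia siControl, 19.9, 17.4 and 20.7 in hypoxia siControl, 15.8, 14.1 and 16.0 in normoxia siARNT, and 9.64, 9.56 and 8.47 in hypoxia siARNT. The siControl groups overlapped and the siARNT groups did not (interaction -0.71, SE 0.139, adjusted p 0.0155; called in 19 of 21). SLC35D3, UGT1A10, PITPNM3, ZBED2, C14orf93, PROSER2 and ALDH1A3 gained falls of 0.75, 0.69, 0.54, 0.44, 0.43, 0.41 and 0.38. They held in 12, 12, 17, 16, 6, 5 and 5 of the 21, and UGT1A10 shares exons with other genes of its locus. With 1 library left out gained rises were 114 without hypoxia siControl C, 25 without hypoxia siARNT C and 2 to 9 in the other 10 cases. Gained falls were 19 and 17 without those libraries and 2 to 13 in the other 10 cases.

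Several lists had no interaction call. The unfolded protein response (17 tested), cholesterol synthesis (24) and cytosolic ribosome genes (53) had 0 calls by edgeR, DESeq2 and limma-voom, with 2, 1 and 8 members at an unadjusted p under 0.05. Over all 16999 tested genes 4.69% were called and 3543 had such a p, so 0 calls in lists of this size is near the background. For the cytosolic ribosome list the median interaction was -0.28, and negative calls were 12 with the GC correction and 22 with it and the replicate block. Negative calls over all tested genes were 1409 and 1525 in these settings, against 373 in the main fit. HIF1A, EPAS1, VHL, HIF1AN, EGLN2, AHR and CLOCK were not called in the interaction, with changes between -0.16 and 0.23.

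Most lost responses differed between siARNT and siControl at 1% O2 only. Of the 297 lost rises, 194 differed between siARNT and siControl at 1% O2 only, 25 at 21% O2 only, 76 at both and 2 at neither. The medians for siARNT were -0.91 at 1% and -0.02 at 21%. Of the 346 lost falls, 259 differed at 1% O2 only, 26 at 21% only, 60 at both and 1 at neither, with medians of 0.54 and 0.00. Over all tested genes the siRNA was called in 29.1% at 1% O2 and in 20.2% at 21% O2. Lost genes were chosen through calls that use hypoxia siControl, so a difference at 1% O2 is partly built in. These comparisons share libraries with the interaction and describe it without adding support.

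The cores bound by HIF and AHR were counted in promoters of each class. Of 12564 tested protein-coding genes, 10181 had a promoter in the RefSeq table. Within the window of 250 bases before to 50 after the start, on either strand, 26.5% held ACGTG, 50.5% GCGTG and 62.7% at least 1 of them. Among 195 lost rises with a promoter the shares were 31.8%, 41.0% and 56.9%, among 29 reduced rises 27.6%, 27.6% and 44.8%, and among 116 kept rises 20.7%, 41.4% and 53.4%. Among 282 lost falls they were 29.8%, 56.4% and 70.9%, among 41 reduced falls 26.8%, 75.6% and 78.0%, and among 121 kept falls 36.4%, 60.3% and 71.9%. The shares were not tested, and elements outside this window were not searched. Lost rises had a median gene GC content of 52.0% and lost falls of 45.9%, against 49.0% of all tested genes.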

How the data were processed

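RNA from 12 AsPC-1 cultures was sequenced as stranded poly(A) libraries on a HiSeq instrument, per the labels' protocols. Per the submitters' processing notes, reads were processed with Trimmomatic and STAR 2.4.2a and genome build GRCh38.p10. The authors deposited raw counts per gene for each library, made with HTSeq per the deposited files' names. Each file lists 57820 gene IDs, and 51996 have a symbol in the reference tables. Summary lines that name no gene held 22.71% to 25.2% of reads and were left out.

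The deposited counts were fitted with edgeR 4.0.16 in R 4.3.3 (TMM scaling, filterByExpr, robust quasi-likelihood fit of 4 group means over all 12 libraries), with Benjamini-Hochberg adjustment over 16999 genes and a threshold of 0.05. Fold changes are on the log2 scale, and CPM was computed here from the scaled library sizes. Scripts were tested on simulated data. Alternatives were DESeq2 1.42.0, limma-voom 3.58.1, total count scaling, no filter, a mean of at least 1 CPM, blocks by replicate letter or well, a lowess GC correction (span 0.3) and leaving out each library.

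Named genes were ARNT, members of the gene lists and, per class and direction, up to 8 protein-coding genes averaging 2 CPM or more, with no overlap between oxygen groups and the largest change. The lists, rules and tests were chosen with earlier results of these data known. Some listed genes are not reported here. For genes with 3 or fewer counts in every library of a group, counts are given in place of fold changes.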

Additional observations from a re-analysis of the deposited data

Results flagged for a closer look

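The interaction itself tested a difference between siARNT and siControl, and 797 genes passed it. Of these, 297 were lost rises, 346 lost falls, 39 reduced rises, 49 reduced falls, 23 gained rises and 22 gained falls. There was 1 strengthened rise and there were 0 strengthened falls. A further 5 positive and 15 negative interaction calls were in none of these classes, with no hypoxia call in siControl. Hypoxia was called in opposite directions with the siRNAs in 20 genes, CYP1B1, AHRR and TIPARP among them. These 20 genes are all counted above as lost rises or lost falls.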

How the results depend on the processing

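No single-gene value among the named genes reversed as a called value in the 21 alternatives. The majority sign of the interaction calls did turn: 53.2% were positive here, 41.5% with no filter, 46.9% with the replicate block by well, and 42.2% to 62.3% with 1 library left out. For siARNT in normoxia the positive share was 46.7% here and 55.6% with DESeq2. The median interaction of the metallothionein list turned from -0.30 to 0.11 without normoxia siARNT B. Of the single-gene values, 8828 kept their side of the threshold, 400 lost the call, 359 gained it and 404 moved by more than the replicate spread. With the GC correction, and with it and the replicate block by letter, calls were 6973 and 7227 for hypoxia in siControl, 3518 and 3800 for hypoxia in siARNT, 5357 and 5732 for siARNT in normoxia, 7710 and 7921 for siARNT in hypoxia, and 2909 and 3150 for the interaction. In the same pair of settings there were 964 and 1017 lost rises, 881 and 963 lost falls, 249 and 279 reduced rises, 469 and 495 reduced falls, 726 and 777 kept rises, 907 and 967 kept falls, 117 and 124 gained rises, and 149 and 165 gained falls, and 44 and 44 HIF targets were called down. Total count scaling gave 1495 interaction calls, 957 lost falls, 86 reduced falls, 283 kept rises and 50 gained rises. A mean of at least 1 CPM gave 553 lost falls, 62 reduced rises and 344 kept rises, and no filter gave 211 lost falls, 25 reduced rises, 8 reduced falls and 13 gained rises. DESeq2 gave 40 gained falls. The cause of these shifts was not tested. With 1 library left out, calls ran from 2873 to 5242 for hypoxia in siControl, 129 to 707 for hypoxia in siARNT, 1571 to 4148 for siARNT in normoxia, 3537 to 5847 for siARNT in hypoxia and 272 to 1188 for the interaction. Lost rises ran from 134 to 371, lost falls from 101 to 651, reduced rises from 12 to 39, reduced falls from 4 to 42, kept rises from 40 to 208, kept falls from 45 to 155, gained rises from 2 to 114, gained falls from 2 to 19 and HIF targets called down from 26 to 36. Fewer samples were fitted in these runs.

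The labels do not tie the replicate letters to wells shared across groups. The 18 same-letter pairs of libraries had deviations correlated at -0.431 to 0.529, with 9 over 0.1. Such mixed values do not settle whether the letters pair the libraries. The 6 pairs that would share a well if letters marked wells had -0.431 to 0.52. A replicate block by letter gave 960 interaction calls. A replicate block by well gave 373 interaction calls, 136 calls for hypoxia in siARNT, 177 lost rises, 165 lost falls, 14 reduced rises, 4 reduced falls, 37 kept rises, 49 kept falls, 2 gained rises, 1 gained fall and 12 DNA replication genes called positive.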
